A study of Mus musculus with 4 samples.

Results

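The 10 genes described here are receptors, ligands and transcriptional targets of the Notch pathway in bulge cells, the resting stem cell compartment of the mouse hair follicle. They were listed by name (receptors Notch1, Notch2, Notch3 and Notch4, ligands Jag1, Jag2 and Dll1, targets Hes1, Hey1 and Heyl) and found by Ensembl identifier among the 55536 genes of the count table. All 10 had a row, and 9 passed the filter on low counts, the exception being Heyl. RNA was sequenced from 4 libraries of skin bulge cells on a C57BL/6 background. The 2 knockout libraries came from Cdh5CreERT2; Alk1 flox/flox mice, in which the endothelial Cdh5 promoter drives a tamoxifen-dependent Cre, and the 2 control libraries from littermates that carry no Cre. Both groups were injected with tamoxifen (100 µg per g of body weight, intraperitoneal) at postnatal day 17 and collected at postnatal day 20, so tamoxifen exposure is shared and does not separate them. Whether the controls also carry the floxed allele, how many mice a library holds, their sex and how bulge cells were isolated are not given in the sources at hand. Nothing states that libraries are single animals, so the p-values measure only the spread between these libraries.

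Notch receptors are single-pass membrane proteins that are cut on contact with a ligand of the Jagged or Delta-like type on a neighbouring cell. The freed intracellular part enters the nucleus, joins the DNA-binding protein RBPJ and Mastermind coactivators, and turns on repressors of the HES and HEY families. In skin the pathway is known for driving cells out of the basal layer into differentiation and for shaping hair follicle lineages. In vessels Notch4, Dll4 and Hey1 are known from endothelium and Notch3 from the mural cells around it. The study's title places an endothelial Alk1 and BMP4 axis upstream of hair follicle stem cell activation. The comparison asks how these transcripts differ in bulge cells when Alk1 is deleted from endothelium.

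Depth ran from 16326906 to 29130974 counts per library. Values are given as CPM, counts scaled to a common normalised library size, and levels of different genes are compared only as CPM per kb of exon. The targeted gene Acvrl1, which encodes Alk1, measured 21.6 and 24.3 CPM in controls against 17.9 and 23.1 CPM in knockouts (edgeR adjusted p = 0.76). Its counts cover the whole gene and bulge cells were not the deleted cell type, so Acvrl1 does not check the labels. All 12 bulge markers were detected in each library, with a summed level of 63168 to 78120 CPM, led by Krt15 at 29088 to 36017 CPM. Endothelial markers summed to 15.5 and 7.48 CPM in controls against 6.16 and 18.6 CPM in knockouts over 12 genes, of which Sox17 and Sox18 had 0 counts in every library. Interfollicular differentiation markers, the 8 genes of the drying upper epidermis, summed to 13211 and 5568 CPM in controls against 9224 and 4452 CPM in knockouts. Control 1 and knockout 1 thus had the higher sums, and control 1 was the highest library for 7 of the 8 markers, Calml3 being the exception. Sebaceous markers summed to 863 and 505 CPM in controls, with 548 and 404 CPM in knockouts. Immune markers summed to 41.0 to 51.4 CPM and melanocyte markers to 9.94 to 16.9 CPM. The 10 markers of hair germ and inner follicle layers summed to 356 and 322 CPM in controls against 346 and 414 CPM in knockouts. In bulk RNA, fewer cells of a type and less RNA per cell cannot be told apart.

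The receptors Notch1 and Notch2 had the smallest p-values of the 9 tested genes, neither passing the test, and the promoter sequence of each is shown so that what the windows share can be seen. Each window is the 250 bases before the RefSeq start site (GRCm38.p6), read on the gene's own strand, and capitals mark the GC box GGGCGG or its complement CCGCCC, a binding motif of SP1-type factors.
Notch1, chr2:26503823-26504072, minus strand: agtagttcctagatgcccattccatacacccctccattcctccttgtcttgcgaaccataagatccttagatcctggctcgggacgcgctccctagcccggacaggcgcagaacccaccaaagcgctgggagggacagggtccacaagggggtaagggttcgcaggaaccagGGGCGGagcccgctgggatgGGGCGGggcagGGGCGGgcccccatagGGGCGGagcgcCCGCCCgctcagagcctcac
Notch2, chr3:98013288-98013537, plus strand: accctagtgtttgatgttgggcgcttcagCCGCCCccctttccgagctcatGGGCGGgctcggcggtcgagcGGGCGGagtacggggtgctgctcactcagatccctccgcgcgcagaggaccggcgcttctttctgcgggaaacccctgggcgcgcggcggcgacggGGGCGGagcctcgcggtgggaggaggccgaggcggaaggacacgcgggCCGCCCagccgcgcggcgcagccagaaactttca

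Both windows are rich in G and C, at 66.0% for Notch1 and 72.0% for Notch2 against a median of 52.4% over 32817 RefSeq windows of that length. Each holds 5 GC boxes, and 32.7% of all windows hold at least 1. Neither trait is particular to these 2 genes. The Jag2 window also holds 5 GC boxes, at 87.2% G and C, and the Notch3 window 4, at 68.8%. Windows of Jag1, Notch4 and Dll1 hold 0, at 56.0% to 64.0% G and C. The window of Notch1 lies in an intron of a longer annotated Notch1 transcript, and the end of the Notch2 window in the first exon of another Notch2 transcript. The RBPJ core TGGGAA, searched on both strands, is in 21.6% of all windows and in 0 of the 8 windows found for 7 of the 10 genes. The box CACGNG, an E-box form bound by HES and HEY proteins, is in 23.5% of all windows. Notch2 has 1 such match, starting 42 bases before its start site, Jag1 has 2, Notch3 and each of 2 Dll1 windows have 1, and Notch1, Notch4 and Jag2 have 0. A match is a run of letters and no evidence of binding, and its absence says only that the letters are not in this window. Hes1, Hey1 and Heyl had no entry.

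Levels per kb of exon, averaged over the 4 libraries, set the Jagged ligands above every receptor, while Dll1 lay below Notch1 and Notch2. Jag2 and Jag1, the Jagged ligands, stood highest at 71.2 ± 10.7 and 55.1 ± 8.0 CPM per kb (SD over 4 libraries), and their ranges did not overlap (65.4 to 87.2 against 48.3 to 63.3). Notch1 followed at 13.1 ± 2.5 CPM per kb, well below Jag1 in each library. Hes1 at 9.21 ± 2.72, Notch2 at 7.27 ± 2.00, Dll1 at 5.80 ± 0.84, Hey1 at 3.73 ± 1.18 and Notch3 at 3.70 ± 1.77 CPM per kb came next, and neighbours in this order from Notch1 to Notch3 overlapped over the libraries. Notch4 at 0.0807 ± 0.0210 and Heyl at 0.0224 ± 0.0253 CPM per kb were far below the rest and overlapped each other. Exon length is the union of all annotated exons, which for Notch1 (14232 bases) includes partial transcripts, so its level per kb is a low estimate.

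**Figure D1:**
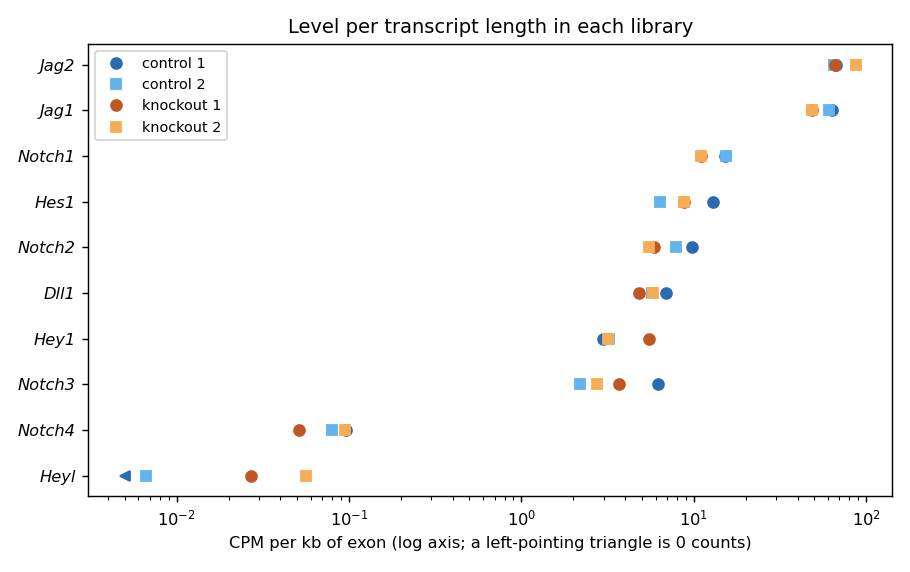
Level of each of the 10 genes in CPM per kb of exon (log axis), 1 point per library with a triangle for 0 counts, genes ordered by their mean. Jag2 and Jag1 lie above 48 CPM per kb in every library, 8 genes from Jag2 down to Notch3 lie above 2, and Notch4 and Heyl lie below 0.1.

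In the comparison of knockout with control, 0 of the 9 tested genes passed an adjusted p of 0.05 in edgeR's quasi-likelihood test with Benjamini-Hochberg adjustment over 14259 genes. The whole table gave 1 call, higher in knockouts (0.00701% of genes tested), and lower calls made up 0%. At an unadjusted p under 0.05, 3 of the 9 were lower (Notch1, Notch2 and Jag1) and 0 higher, where 5.94% of all genes were lower and 4.8% higher. Both knockouts lay below both controls for the same 3 genes, against 23.6% of all genes, and above both controls for 0 of the 9, against 21.3%. Of the 9 log2 fold changes 7 were below 0, against 52.5% of all genes, and their median was -0.26, against -0.02 over all genes tested. That median was -0.10 without control 1 and -0.12 without knockout 1. Single markers of other cells also had lower or higher values in knockouts. The 8 fibroblast markers summed to 193 and 246 CPM in controls and to 152 and 148 CPM in knockouts, without overlap. Most of that sum came from Col1a1 (75.3 to 148 CPM) and Col1a2 (43.8 to 80.9 CPM). Of 6 tested, 2 were lower at an unadjusted p under 0.05, the collagen genes Col1a1 (-0.69) and Col1a2 (-0.52). Col3a1 (0.84) and Dcn (1.03) had values above 0, Pdgfra (-0.13) and Thy1 (-0.04) below 0, all with overlapping groups. Dcn and Pdgfra stood at 0.778 to 3.26 CPM and Lum was at 0 in both controls. Of the 8 sebaceous markers, the lipid enzymes Fasn (-0.67) and Scd3 (-1.95) were lower at an unadjusted p under 0.05, and 6 overlapped between groups. At that threshold the immune marker Laptm5 (-0.93) was lower and the immune marker Cd3g (0.91) higher. The bulge marker Krt14 (0.58), the endothelial marker Tek (1.54) and the hair germ marker Cdh3 (0.53) were higher too. The 10 mural markers summed to 585 and 636 CPM in controls and to 492 and 537 CPM in knockouts, without overlap. Most of that sum came from Cspg4 (483 to 627 CPM, log2 fold change -0.25). Summed immune, melanocyte and endothelial markers overlapped between groups. None of these markers passed the adjusted threshold, and their part in the values of Notch1, Notch2 and Jag1 was not tested. DESeq2 called 0 of the 8 genes to which it gave an adjusted p, and limma-voom 0 of 9.

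**Figure D2:**
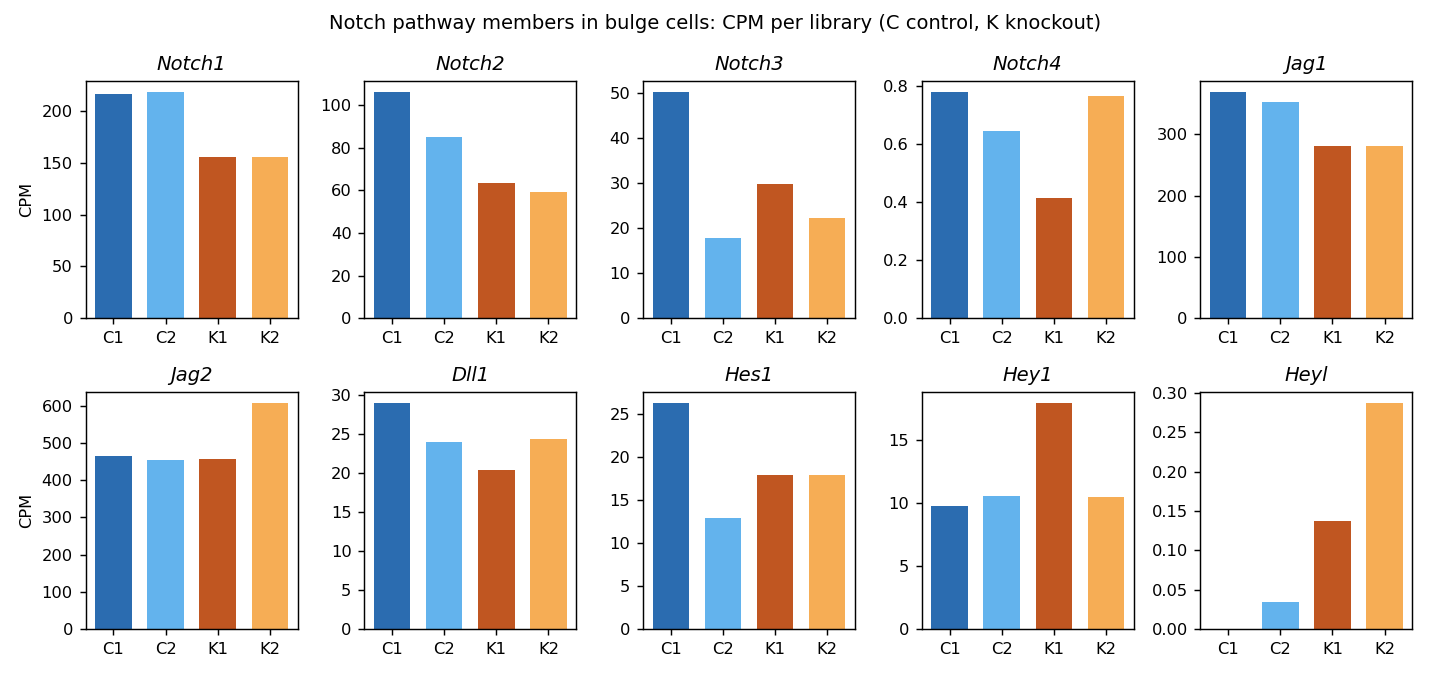
CPM of each gene in control 1 and 2 (C1, C2, blue) and knockout 1 and 2 (K1, K2, orange), 1 bar per library, each panel with its own axis from 0. Both knockout bars are below both control bars for Notch1, Notch2 and Jag1, while Heyl rests on 10 counts in all.

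Notch1 (ENSMUSG00000026923, chromosome 2, 26457903 to 26516663, GRCm38) is the main receptor of the epidermis. It measured 216 and 218 CPM in controls against 156 and 156 CPM in knockouts, from 3253 to 6434 counts. The libraries of a group were nearly equal, at 217 ± 1.2 and 156 ± 0.052 CPM (SD, n = 2 each), and the groups did not overlap. The log2 fold change was -0.48 ± 0.11 (SE; 95% interval -0.75 to -0.21), a ratio of 0.718, with an unadjusted p of 0.0050 and an edgeR adjusted p of 0.43. It ranked 146 of 14259 genes by p.

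Notch2 (ENSMUSG00000027878, chromosome 3, 98013527 to 98150361) encodes a receptor built like Notch1. It measured 106 and 84.9 CPM in controls against 63.3 and 59.4 CPM in knockouts. Both knockouts were below both controls, and control 1 was the highest. The log2 fold change of -0.64 ± 0.15 (95% interval -0.99 to -0.28, ratio 0.643) had the smallest p of the 9 genes at 0.0045, with an edgeR adjusted p of 0.43. Without a count filter Notch2 passed (-0.64, adjusted p = 0.0030), in a fit whose spread was taken wholly from all genes together. No other alternative called Notch2, where adjusted p ran from 0.091 to 0.97.

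Notch3 (ENSMUSG00000038146, chromosome 17, 32120820 to 32166852) measured 50.04 and 17.7 CPM in controls against 29.7 and 22.2 CPM in knockouts. The groups overlapped, with the highest and the lowest library both controls. Its log2 fold change was -0.37 ± 0.46 (95% interval -1.49 to 0.74, edgeR adjusted p = 0.77), and it was 0.55 without control 1 and -0.92 without control 2. Markers of mural cells, where Notch3 is the known vascular receptor, summed to 6.94 to 9.42 CPM over 9 genes, with Kcnj8 at 0 counts in every library and Rgs5 at 1 to 3 counts. This sum leaves out Cspg4, listed as a mural marker but at 483 to 627 CPM here, which was set aside after its values were seen.

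Notch4 (ENSMUSG00000015468, chromosome 17, 34564268 to 34588503), the receptor known from endothelium, had 13 and 19 counts in controls and 9 and 16 in knockouts. That is 0.778 and 0.644 CPM against 0.414 and 0.766 CPM, so the groups overlapped. The fitted difference was a log2 fold change of -0.26 ± 0.54 (95% interval -1.56 to 1.05, edgeR adjusted p = 0.87), and it was 0.12 without knockout 1 and -0.76 without knockout 2. Knockout 1, the lowest library for Notch4, was also lowest for the summed endothelial markers given above, and knockout 2 was highest for them. Of those markers Tek alone gave 10.6 CPM in knockout 2 and 2.07 to 3.17 CPM in the other libraries, while Cdh5 had 23 and 9 counts in controls and 3 in each knockout. The part of residual endothelium in the Notch4 counts was not tested.

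As a class, the receptors summed to 31.3 and 25.5 CPM per kb in controls and 20.6 and 19.3 CPM per kb in knockouts. Notch1 made up 48.5% and 60.1% of that sum in controls and 53.3% and 56.7% in knockouts, so its share overlapped between groups. Notch2 held 31.4% and 30.9% in controls and 28.6% in both knockouts. The ratio of Notch1 to Notch2 per kb was 1.55 and 1.94 in controls and 1.87 and 1.99 in knockouts, also overlapping.

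The ligands went different ways in their values. Jag1 (ENSMUSG00000027276, chromosome 2, 137081456 to 137116644), a Jagged ligand with known roles in the follicle, measured 369 and 353 CPM in controls against 281 and 281 CPM in knockouts. The groups did not overlap. The log2 fold change was -0.36 ± 0.12 (95% interval -0.64 to -0.08, ratio 0.779), with an unadjusted p of 0.020 and an edgeR adjusted p of 0.43.

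Jag2 (ENSMUSG00000002799, chromosome 12, 112907819 to 112929776), the other Jagged ligand, measured 464 and 455 CPM in controls against 458 and 608 CPM in knockouts. Knockout 2 stood apart, and the other 3 libraries lay between 455 and 464 CPM. The log2 fold change of 0.21 ± 0.16 (95% interval -0.18 to 0.61, edgeR adjusted p = 0.65) turned to -0.0047 without knockout 2 and was 0.40 without knockout 1. Per kb, Jag2 exceeded Jag1 by ratios of 1.05 and 1.08 in controls and 1.36 and 1.81 in knockouts. The share of Jag2 in the summed ligands was 48.7% and 49.6% in controls and 55.3% and 61.8% in knockouts, with no overlap. With 2 libraries a group this difference in balance was not tested. Knockout 2 was also the highest library for the summed markers of hair germ and inner follicle layers. Of these, Cdh3 gave 247 CPM in knockout 2 and 142 to 166 CPM in the other libraries. Krt71, Krt27 and Tchh were also highest in knockout 2, at 0.814 to 13.6 CPM there. The others were highest in another library, among them Gata3 (128 CPM in control 1, 95.2 CPM in knockout 2). Hoxc13 was lowest in knockout 2, at 39.3 CPM. The part of these markers in the values of Jag2 was not tested.

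Dll1 (ENSMUSG00000014773, chromosome 17, 15367354 to 15376872), a Delta-like ligand, measured 29.03 and 24.1 CPM in controls against 20.4 and 24.4 CPM in knockouts, and the groups overlapped. Its log2 fold change was -0.24 ± 0.18 (95% interval -0.67 to 0.18, edgeR adjusted p = 0.63). Dll1 gave -0.10 with control 1 left out, -0.12 with knockout 1 left out and -0.38 when knockout 2 was dropped. The lincRNA A930024N18Rik overlaps 20.55% of the exon bases of Dll1 on the opposite strand, and it held 20 to 51 counts against 443 to 711 for Dll1. Dll1 was 4.06% to 5.03% of the summed ligands per kb in the 4 libraries.

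**Figure D3:**
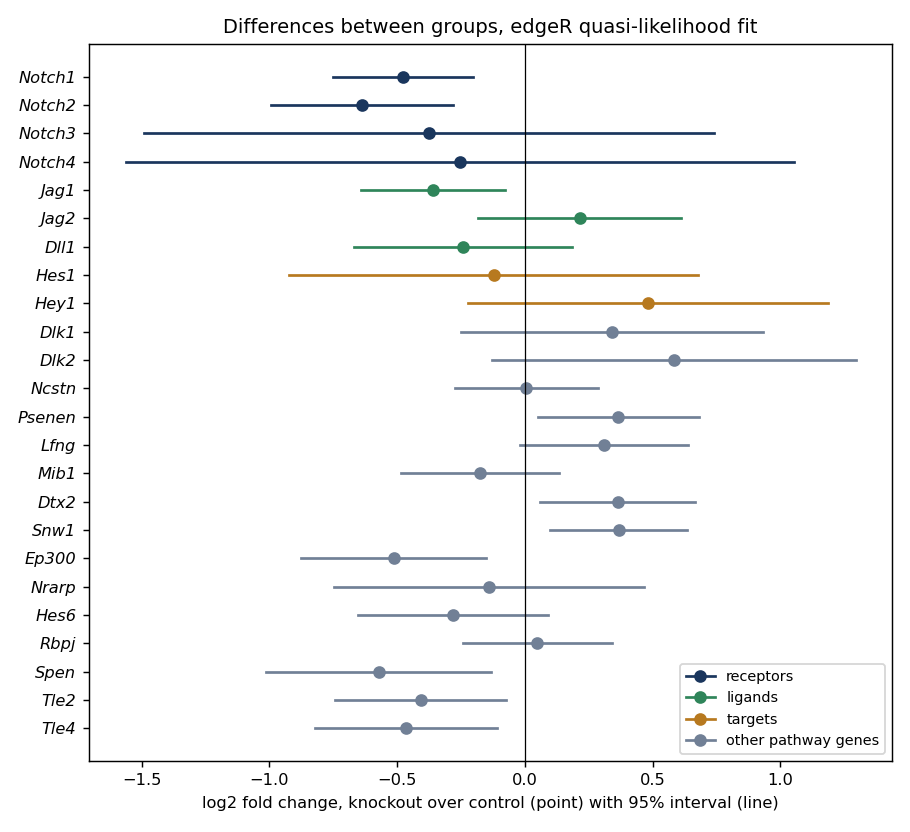
Log2 fold change of knockout over control (points) with the 95% interval (lines) from the edgeR fit, for the 9 tested genes by role and for 15 other pathway genes. Intervals of Notch1, Notch2 and Jag1 lie below 0, those of Notch3, Notch4, Jag2, Dll1, Hes1 and Hey1 include 0, and none of the 24 genes passed the adjusted threshold.

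The targets showed no common shift. Hes1 (ENSMUSG00000022528, chromosome 16, 30064384 to 30067796), the repressor most widely used as a readout of Notch activity, measured 26.3 and 12.9 CPM in controls against 17.9 and 17.9 CPM in knockouts. Both knockouts lay between the controls. For Hes1 the log2 fold change was -0.12 ± 0.33 (95% interval -0.92 to 0.68, edgeR adjusted p = 0.90). It was 0.47 without control 1, -0.53 without control 2 and 0.05 with limma-voom.

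Hey1 (ENSMUSG00000040289, chromosome 3, 8663359 to 8667256), a HEY family repressor, measured 9.76 and 10.5 CPM in controls against 17.9 and 10.4 CPM in knockouts. Only knockout 1 was high, while knockout 2 lay between the controls. The log2 fold change was 0.48 ± 0.29 (95% interval -0.22 to 1.19, edgeR adjusted p = 0.57), and it was 0.04 without knockout 1 and 0.82 without knockout 2. The summed endothelial markers were lowest in knockout 1, at 6.16 CPM, and the part of endothelial transcript in Hey1 was not tested.

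Heyl (ENSMUSG00000032744, chromosome 4, 123233556 to 123249875), another HEY family gene, had 0 and 1 counts in controls and 3 and 6 in knockouts and was not tested in the filtered table. Both knockouts were above both controls. The 0 counts of control 1 allow up to 3 counts, or 0.180 CPM, as a one-sided 95% limit, and up to 3.69 counts by the exact two-sided 95% Poisson interval. That interval was 0.619 to 8.77 counts in knockout 1 and 2.20 to 13.1 in knockout 2, and both overlap that of control 2 (0.0253 to 5.57). Intervals and limits cover counting error only. The difference in Heyl was not tested.

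Notch3 and Hes1 shared a pattern over libraries that did not follow the groups. Both were highest in control 1 and lowest in control 2. Nrarp, a Notch target that feeds back on the receptor, measured 68.2 and 40.7 CPM in controls against 52.6 and 46.0 CPM in knockouts, again with control 1 highest and control 2 lowest. Interfollicular differentiation markers were likewise highest in control 1, followed by knockout 1, but their lowest library was knockout 2. All 8 of these markers had a log2 fold change below 0 and overlapping groups. The summed sebaceous markers had the same order of libraries, at 863 CPM in control 1, 548 in knockout 1, 505 in control 2 and 404 in knockout 2. The part of either marker list in the values of Notch3, Hes1 and Nrarp was not tested. Hes6 and Hey1 had other orders. The HES family gene Hes6 was highest in control 2, at 30.0 CPM, and Hey1 was lowest in control 1, at 9.76 CPM. The share of all genes with the order of Notch3 and Hes1 was not computed. The fold change of Nrarp was -0.14 ± 0.25 (95% interval -0.75 to 0.47), 0.28 without control 1 and -0.45 without control 2. The antisense model Gm38287 covers 79.43% of the exon bases of Nrarp and held 12 to 28 counts.

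**Figure D4:**
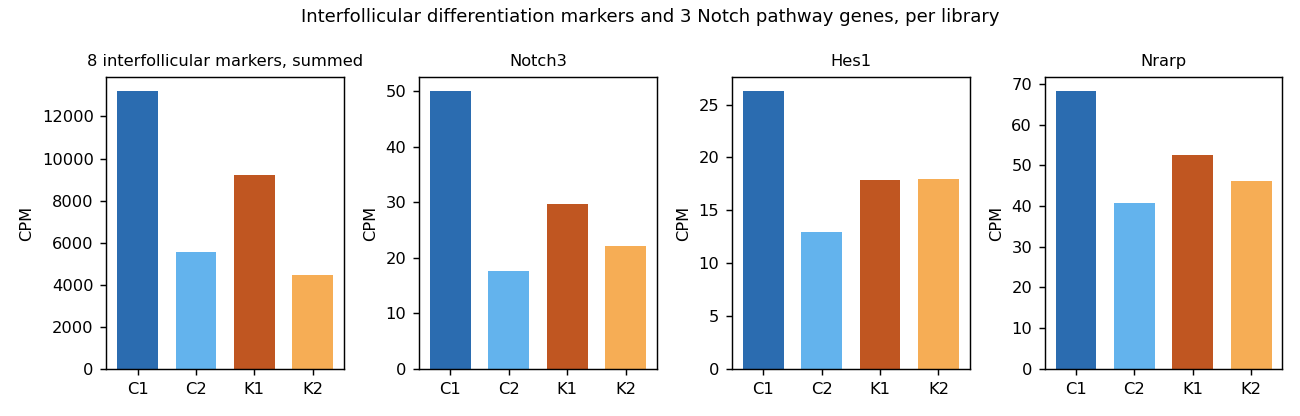
CPM per library (C control, K knockout) of 8 interfollicular differentiation markers summed, and of Notch3, Hes1 and Nrarp, each axis from 0. Control 1 is the highest library in all 4 panels, and control 2 is the lowest for the 3 Notch pathway genes but not for the markers.

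Among the 36 pairs of tested genes, Notch1 and Jag1 had the most alike profiles over the 4 libraries, with a root mean square difference of centred log2 CPM of 0.0643. Notch1 and Notch2 differed by 0.143, and the least alike pair, Notch3 and Hey1, by 0.663. Over all tested genes, those nearest to Notch1 were Ankrd50 (0.0112), Sptbn1 (0.0168) and Dmxl1 (0.0178), and 451 genes lay within 0.1 of it. Those nearest to Notch2 were Gm47260 (0.0222), Nprl3 (0.0255) and Gm46430 (0.0378), with 77 genes within 0.1. These distances describe 4 libraries.

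The wider pathway was read from a list of 53 other genes, of which 44 were tested and 0 passed in edgeR. At an unadjusted p under 0.05, 3 of the 44 were higher and 4 lower, where 4.8% of all genes were higher and 5.94% lower. Both knockouts were above both controls for 7 and below for 11, near the shares over all genes. The median log2 fold change was -0.0077, with 21 genes above 0 and 23 below.

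The machinery that cuts the receptor was measured for all 10 listed genes. Ncstn, a gamma-secretase subunit and the cleavage gene of highest CPM, measured 181 and 184 CPM in controls against 178 and 189 CPM in knockouts. Its log2 fold change of 0.01 ± 0.12 had a 95% interval of -0.27 to 0.28. Psenen, the smallest gamma-secretase subunit, measured 36.3 and 40.7 CPM against 48.9 and 50.4 CPM, without overlap. Its log2 fold change was 0.37 ± 0.13 (edgeR adjusted p = 0.43).

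Of the 4 tested glycosylation genes, Lfng, a fringe enzyme that modifies Notch and tunes its response to ligands, had the highest CPM and the smallest p. It measured 171 and 205 CPM in controls against 230 and 235 CPM in knockouts, without overlap (log2 fold change 0.31 ± 0.14, edgeR adjusted p = 0.47). It was 0.19 without control 1 and 0.47 without control 2. Among 12 tested ubiquitination and trafficking genes, Mib1, the ligase that activates ligands, gave -0.18 ± 0.13. Its value was 0.01 once the dependence on length and GC was removed, -0.07 without knockout 1 and -0.29 without knockout 2. Dtx2, a Deltex ligase, measured 38.8 and 36.7 CPM in controls against 47.1 and 49.9 CPM in knockouts (0.36 ± 0.12, edgeR adjusted p = 0.43). The atypical ligands Dlk1 and Dlk2 gave 0.34 ± 0.24 and 0.58 ± 0.29, with overlapping groups. Dlk1 was 0.09 without control 1 and without knockout 2, 0.68 without control 2 and 0.55 without knockout 1. Dlk2 was 0.14 without knockout 2, 0.38 without control 2 and 0.92 without knockout 1. The Delta-like genes Dll4 and Dll3 were not tested, at 0 to 6 and 0 to 15 counts.

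The nuclear step was split in its values, with 7 of 14 genes above 0 and 7 below. Rbpj, the DNA-binding partner of the receptor, measured 90.7 and 98.5 CPM in controls against 93.6 and 102 CPM in knockouts, a log2 fold change of 0.05 ± 0.12 (95% interval -0.24 to 0.34). Snw1, an RBPJ-binding splicing factor and the nuclear gene of highest CPM, measured 132 and 132 CPM in controls against 170 and 170 CPM in knockouts (0.37 ± 0.11, edgeR adjusted p = 0.43). Slirp overlaps 44.25% of the exon bases of Snw1 on the other strand. Ep300, an acetyltransferase recruited by Mastermind, measured 73.9 and 73.9 CPM against 45.7 and 57.7 CPM (-0.51 ± 0.15, edgeR adjusted p = 0.43). Spen, a corepressor of RBPJ, gave -0.57 ± 0.18, and the Groucho corepressors Tle4 and Tle2 gave -0.46 ± 0.15 and -0.41 ± 0.14. The other Groucho genes Tle1 (0.29 ± 0.21) and Tle3 (-0.01 ± 0.20) had overlapping groups. The corepressor Cir1 (0.41 ± 0.22) measured 38.1 and 37.9 CPM in controls against 39.1 and 61.8 CPM in knockouts. Only knockout 2 stood apart for Cir1, and knockout 1 was close to the controls. With the length and GC dependence removed, Spen was -0.36 and Ep300 -0.30, and Spen was -0.35 without knockout 1. Without a count filter Ep300 (adjusted p = 0.043) and Spen (0.027) passed as lower. Rbpj, Spen, Cir1 and Tle1 to Tle4 were named after their values were seen. Among other genes of the HES and HEY families, Hes6 gave -0.28 ± 0.15 (-0.15 without control 2). Hes2, Hes3, Hes5, Hes7 and Hey2 had 0 to 12 counts in any library.

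Exon length moved with the group difference over the whole table. The median log2 fold change was 0.12 in the shortest decile of tested genes and -0.19 in the longest. Notch1 and Notch2 are in the longest decile, Notch3 and Notch4 in the ninth and Jag1 in the seventh, where the medians were -0.19, -0.13 and -0.05. Each of these 5 had a value below the median of its decile. With the dependence on exon length and GC removed from each library, Notch1 gave -0.25 ± 0.13, Notch2 -0.44 ± 0.14 and Jag1 -0.27 ± 0.13 (edgeR adjusted p of 0.58, 0.53 and 0.55). In that fit the median over all tested genes was 0.043, against -0.021 in the main fit. The part of length in the remaining differences was not tested.

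**Figure D5:**
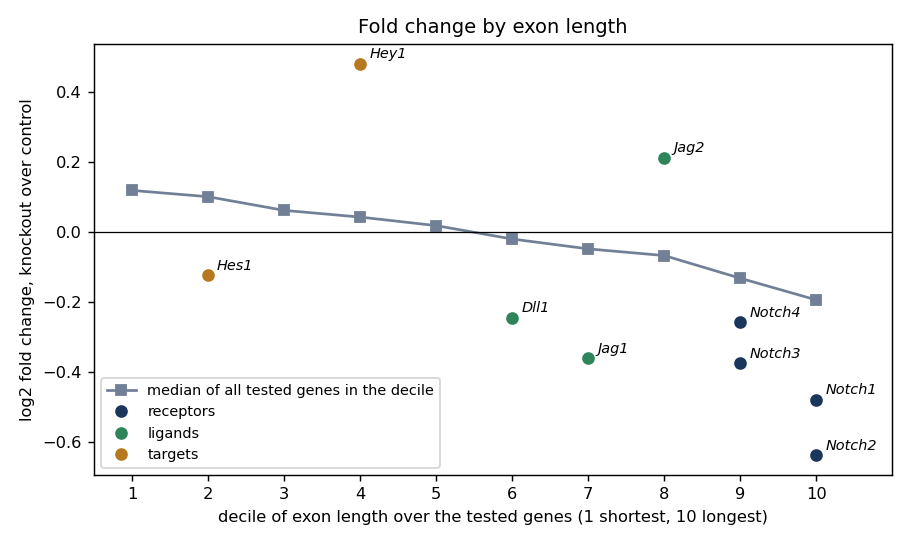
Log2 fold change of the 9 tested genes (points, coloured by role) at the decile of exon length each falls in, with the median of all tested genes in each decile (grey squares). The grey line runs from 0.12 to -0.19, Notch1 and Notch2 lie below it at the longest decile, and Jag2 lies above it in the eighth.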

How the data were processed

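The deposited values are raw counts per Ensembl gene, as the labels' description of the file and the whole numbers in it show. Per the submitters' processing notes, Trim Galore 0.6.0, cutadapt, FastQC, STAR 2.7.0e and DESeq2 1.26.0 were used with GRCm38 (mm10). The libraries were directional and polyA-selected, per the labels' protocols. Counting tool, strand setting and annotation release are unknown from the sources at hand, so reads of overlapping antisense genes may not be separable. Symbols, positions and exon lengths came from GENCODE M21 (GRCm38), which matched all 55536 identifiers, and promoter windows from RefSeq (GRCm38.p6).

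In R 4.3.3, filterByExpr kept 14259 genes. TMM normalization and edgeR 4.0.16's quasi-likelihood test (robust, no covariates) compared the groups, with Benjamini-Hochberg adjustment over all tested genes and a threshold of 0.05. SE is the fold change over the root of the F statistic. Centred log2 CPM used a prior count of 2. Alternatives were RLE and upper-quartile scaling, no filter, at least 50 counts in 2 libraries, DESeq2 1.42.0, limma-voom (limma 3.58.1), the replicate number as a block, removal of a spline trend (4 degrees of freedom each) on exon length and GC content, and each library left out. On simulated data with 14259 genes changes of 1.5 and 2 times were recovered in 8% and 72% of 50 genes each, and those of 4 and 8 times in 98% and 100%, with 26 false calls among 165 and 200 changed genes in all, against 1 call in the real table. Replicates were not duplicates (chi-square per degree of freedom 31.6 between controls and 41.9 between knockouts).

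The genes and lists were chosen with earlier results of these data known. Named genes were the 10 listed, from each role of the wider list the gene of highest mean CPM and that of smallest p where none passed, and the 3 genes nearest in profile to each of the 2 listed genes of smallest p.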

Additional observations from a re-analysis of the deposited data

How the results depend on the processing

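Over 12 alternatives, 24 named genes gave 287 values. Of these, 271 kept the direction and side of the threshold, 3 passed only in the unfiltered fit and 13 changed sign. Notch1 (-0.49 to -0.25), Notch2 (-0.77 to -0.44) and Jag1 (-0.37 to -0.27) stayed below 0 in all 12. Without a count filter edgeR called 1 of the listed Notch genes (Notch2), 2 of the wider list (Ep300 and Spen) and 430 genes of all, against 0, 0 and 1. In that fit the prior degrees of freedom were infinite, against 4.17. Over all genes DESeq2 called 101, the fit corrected for length and GC 2, and fits without 1 library 1 to 21. For the listed genes and the wider list, fits without 1 library called 0.

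Values that changed sign, none of them past the threshold, were Hes1 with limma-voom (0.054), Mib1 after removal of the length and GC trend (0.012) and Ncstn without a filter (-0.0026) and at 50 counts (-0.0046). After removal of that trend the median over all tested genes was 0.043, above the value of Mib1. Leaving out 1 library at a time gave ranges across 0 for Notch3 (-0.92 to 0.55), Hes1 (-0.53 to 0.47), Nrarp (-0.45 to 0.28), Notch4 (-0.76 to 0.12), Jag2 (-0.0047 to 0.40), Ncstn (-0.041 to 0.050) and Rbpj (-0.016 to 0.13). The sign turned without control 1 for Notch3, Hes1, Nrarp, Ncstn (-0.0047) and Rbpj (-0.0068), without knockout 1 for Notch4, and without knockout 2 for Jag2, Ncstn and Rbpj. The cause was not tested. The median of the 9 genes, -0.26, was -0.10 without control 1 and -0.12 without knockout 1.

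Both groups number their libraries 1 and 2, but the labels state no pairing. Same-numbered libraries deviated together with a correlation of 0.12 over 14259 genes. With the replicate number as a block, edgeR called 106 genes, 0 of the 9 listed genes and 0 of the wider list. The prior degrees of freedom in that fit were 22.6, against 4.17 in the main fit, so the 2 numbers of calls differ in more than the block. Depth limits Notch4 and Heyl, at 57 and 10 counts in all.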
